A study of Mus musculus with 50 samples.

Results

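Neat1 is a long noncoding RNA, and it was the 1 gene examined here among the 1000 gene targets of a CosMx spatial imaging panel applied to mouse liver. In this assay fluorescent probes are read in cycles on a tissue section, and each decoded spot counts as 1 transcript of 1 target with a position, an optical plane, a segmented cell and a compartment within that cell. Both groups were C57BL/6 mice given AAV8-TBG-Cre when 6 months old, a virus whose TBG promoter drives Cre recombinase in hepatocytes, and livers were collected 12 months later at 18 months. HIRA KO mice carried HIRA fl/fl alleles, so that hepatocytes lost HIRA, which deposits histone H3.3 on DNA, and Control mice were wild type. Other liver cells keep Hira in this model, and Hira was not among the targets, so the deletion could not be checked in these data. The 50 fields of view formed 6 tissue areas on 1 slide, 3 Control and 3 HIRA KO, and each of these areas counted as 1 replicate. Neat1 was selected on its nuclear share, its counts against nuclear and cell area and its levels across cell groups and genotypes, all measured in these data, and these values are therefore given as descriptions, with no test.

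Neat1 is the architectural RNA of paraspeckles, nuclear bodies that assemble along its long isoform together with RNA-binding proteins such as NONO and SFPQ. A short isoform shares the 5′ end of the long one and is not sufficient to build the body. Both stay in the nucleus, which makes Neat1 a useful contrast to the messenger RNAs that fill most of such a panel. In GENCODE vM21 on GRCm38, Neat1 lies on the minus strand of chromosome 19 from 5824708 to 5845478. Its longest annotated transcript, Neat1-201, is a single exon of 20771 bases, and the spliced transcript Neat1-202 covers 5842307 to 5845476 at the 5′ end. The panel's tables carry no genome build and no probe positions, so the counts below cannot be assigned to an isoform.

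Each area held 6801 to 10171 cells after filtering, with 718991 to 1542205 gene counts and a median of 88 to 147 counts per cell. HIRA KO areas held more gene counts than any Control area. Control areas lay on 1 side of the slide, opposite the HIRA KO areas, with 1 area of each group in each of 3 slide rows, so that side and genotype cannot be told apart. Neat1 was the target with the 12th highest count, at 41994 transcripts in cells, or 0.599% of gene counts, and 14.1 times the mean of the 10 negative probes. The greatest number of Neat1 transcripts in 1 cell was 23. Of the 1000 targets, 748 had more counts in cells than the highest negative probe, at 3946, and comparisons with other targets below use these 748.

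Neat1 was the most nuclear target measured. Of its transcripts in cells, 37420 were assigned to the nucleus, 3386 to the cytoplasm and 1188 to the membrane compartment, a nuclear share of 89.1%. The median target had a nuclear share of 50.5%, and the next highest were Vegfa at 76.6%, Il15ra at 76.4% and Clec2d at 74.1%. Vegfa encodes the main growth factor for endothelial cells, and Il15ra the receptor subunit that presents interleukin-15. Ier3, Cxcr1, Bax, Abl1, Hspb1 and Tyms followed, at 70.8% to 69.1%. Ttr, the transcript of the secreted thyroid hormone carrier transthyretin and the target with the most counts, ranked 747 of 748 in nuclear share. Meg3, the only other long noncoding RNA of the 16 listed here that the panel held, was at 45.7%, below the median target.

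Neat1 was also the target least often found outside segmented cells. Only 586 of 42580 Neat1 transcripts, 1.38%, lay outside cells, against a median of 6.69% over targets and 2.57% for the next lowest, Il15ra. Across areas the nuclear share of Neat1 in all cells kept was 91.0%, 91.8% and 93.5% in Control areas and 86.9%, 86.3% and 84.9% in HIRA KO areas, and Neat1 ranked 1 of 748 targets in each of the 6 areas. The share of a compartment follows the outline of the segmented nucleus, so transcripts above or below a nucleus in the section also count as nuclear.

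**Figure D1:**
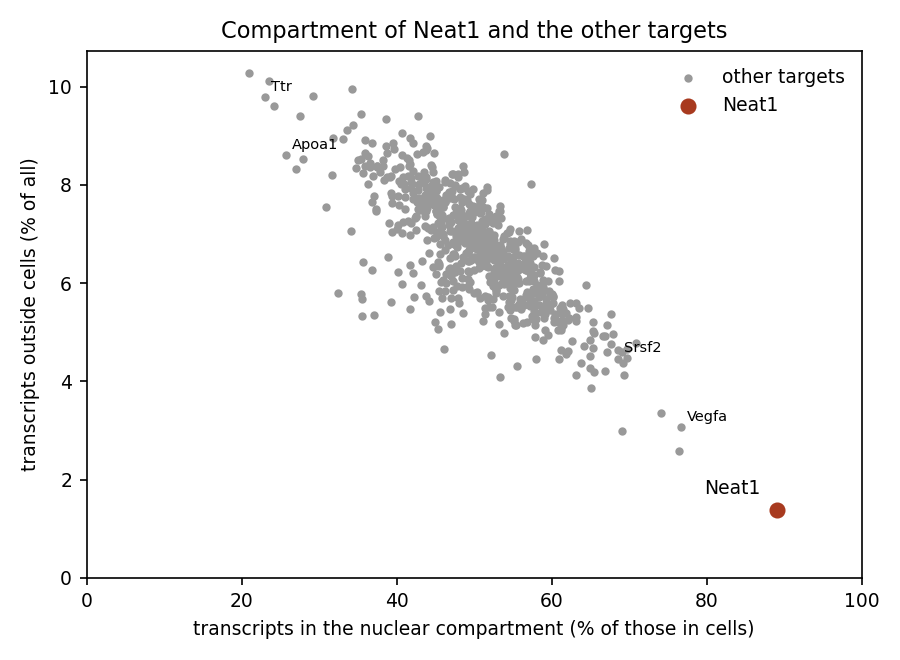
Each point is 1 of the 748 targets with more counts than the highest negative probe, with the percent of its transcripts in cells assigned to the nucleus on the x axis and the percent of all its transcripts outside cells on the y axis. Neat1 sits at the end of the cloud, at 89.1% nuclear and 1.38% outside cells, beyond Vegfa at 76.6% and 3.07%.

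Neat1 was denser in larger nuclei, and by a greater factor than the sum of all transcripts. In hepatocyte-like cells, Neat1 counts per cell were 0.170 for nuclei of up to 1500 square pixels, 0.364 from there to 3000, 1.24 to 5000, 2.20 to 7000 and 3.51 above 7000. In terms of density, nuclear Neat1 transcripts per megapixel of nucleus (a square of 1000 by 1000 pixels) were 66.5, 122, 284, 346 and 384 over the same size classes. The density of all nuclear gene transcripts went from 12306 to 20877 per megapixel between the smallest and the largest class. The largest nuclei held Neat1 at 4.73 to 7.95 times the density of the smallest ones across the 6 areas, while the ratio for all gene transcripts lay between 1.52 and 2.34. The lowest Neat1 ratio, in HIRA KO area 3, was above the highest ratio for all transcripts, in Control area 2.

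Outside hepatocyte-like cells the pattern was similar. In cells of all other named classes together, Neat1 density was 56.6 per megapixel in the smallest nuclei and 197 in the largest, whereas that of all gene transcripts was 21805 and 21068. The largest nuclei were above the smallest in each of the 6 areas, by 1.87 times in HIRA KO area 1 to 7.91 times in Control area 2. Cells of any class with no nucleus in the section held little Neat1, at 0.0847 counts per cell over 177 cells. The nuclear share also moved with nuclear size, from 35.7% in the smallest hepatocyte-like nuclei to 93.6% in the largest. Most Neat1 of cells with the smallest nuclei thus lay outside the nuclear outline and did not enter the density there. The part of this in the density ratios was not tested.

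Per megapixel of cell, Neat1 was at 56.5 in the smallest hepatocyte-like cells (up to 5000 square pixels), 47.5 in the next class (up to 10000) and 68.4 in the largest (above 30000). In the other named classes together it was 43.7 in the smallest and 39.3 in the largest cells.

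**Figure D2:**
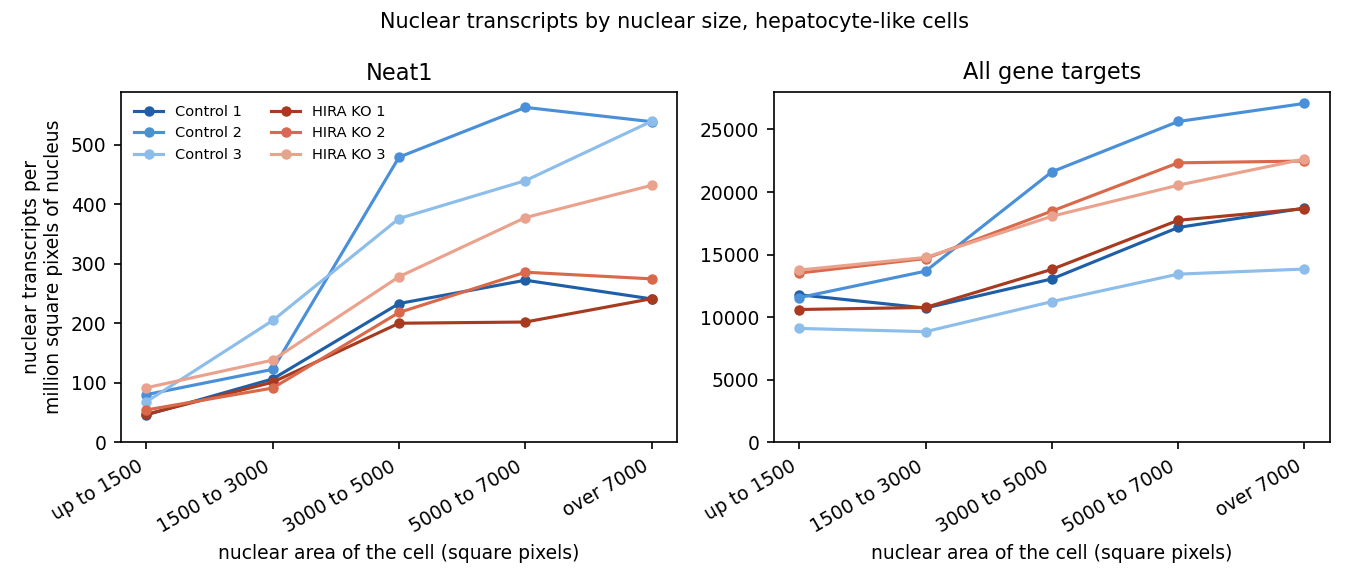
Lines join the 5 classes of nuclear area (x axis, square pixels) for each tissue area, in hepatocyte-like cells, and the y axes give nuclear transcripts per megapixel of nucleus for Neat1 (left) and for all gene targets (right). Neat1 density in the largest nuclei was 4.73 to 7.95 times that in the smallest, against 1.52 to 2.34 times for all targets.

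Cells were grouped into 19 clusters without using Neat1, of which 4 were hepatocyte-like (12583 cells) and 4 stayed unnamed (11162 cells). The unnamed clusters are left out of the order of classes below. Neat1 was highest in hepatocyte-like cells among the 10 named classes, at 8419 ± 3880 CPM (counts scaled to the total of all gene counts, SD, n = 6 areas). Neutrophil-like cells followed at 6619 ± 2717, T/NK-like cells at 4613 ± 1682 and cholangiocyte-like cells, of the bile ducts, at 3557 ± 1204. Kupffer-like cells, the resident macrophages, were at 3447 ± 1149, stellate-like cells at 3225 ± 934 and endothelial-like cells at 3141 ± 868. Among endothelial-like cells, the cluster led by Kdr was at 2781 ± 717 and that led by Fabp4 and Vwf at 5385 ± 2291. B-lineage-like cells were at 2909 ± 1392, monocyte/dendritic-like cells at 2417 ± 534 and myofibroblast-like cells were lowest at 1944 ± 808.

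Not all neighbours in this order were apart. Hepatocyte-like cells were above neutrophil-like cells in 5 of 6 areas, and the log2 difference of 0.33 was smaller than its spread over areas of 0.42 (SD). Neutrophil-like cells were above T/NK-like cells in 6 of 6 areas by 0.50 ± 0.13 on the log2 scale, and T/NK-like cells above cholangiocyte-like cells in 6 of 6 by 0.37 ± 0.23. From cholangiocyte-like to myofibroblast-like cells each class differed from the next by less than the spread over areas. The lowest classes rested on few transcripts, with as few as 5 Neat1 counts in an area for B-lineage-like and 2 for myofibroblast-like cells.

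Segmentation in a section can assign transcripts to a neighbouring cell, and transcripts of hepatocytes were present in every class. The 13 hepatocyte markers on the panel, of 16 listed, summed to 138678 CPM in hepatocyte-like cells on average over areas. In neutrophil-like cells, which had the greatest sum of the other named classes and Serpina1a among their 10 leading genes, the sum was 79541 CPM. It was 53133 in T/NK-like and 31684 in myofibroblast-like cells, and the part of these hepatocyte transcripts in the Neat1 levels of the classes was not tested. Neutrophil-like cells were also large, with a median area of 14050 square pixels and a median nuclear area of 3056. The other named classes but hepatocyte-like had medians of 5394 to 9745 and 2150 to 2584. At clustering resolution 1.0 the neutrophil-like class held 526 cells instead of 1239. How many of its cells are neutrophils was not tested. The nuclear share of Neat1 was nevertheless high in each class, between 73.2% in myofibroblast-like and 90.9% in hepatocyte-like cells.

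Within hepatocyte-like cells Neat1 was highest in 1 cluster. The cluster led by Clec2d and Vegfa had 12268 ± 4672 CPM and 2.21 Neat1 counts per cell, against 6803 ± 2521 in the cluster led by Apoa1, 7050 ± 2183 in that led by Ttr and Gc, and 6261 ± 2169 in that led by Glul, the glutamine synthetase of pericentral hepatocytes (SD, n = 6 areas each). Its nuclei had a median area of 4876 square pixels, compared with 3071, 3960 and 3234 in the others. Hepatocyte-like cells without any Neat1 count made up 41.8% to 60.4% of cells by area, and those with 5 or more made up 1.83% to 12.9%.

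**Figure D3:**
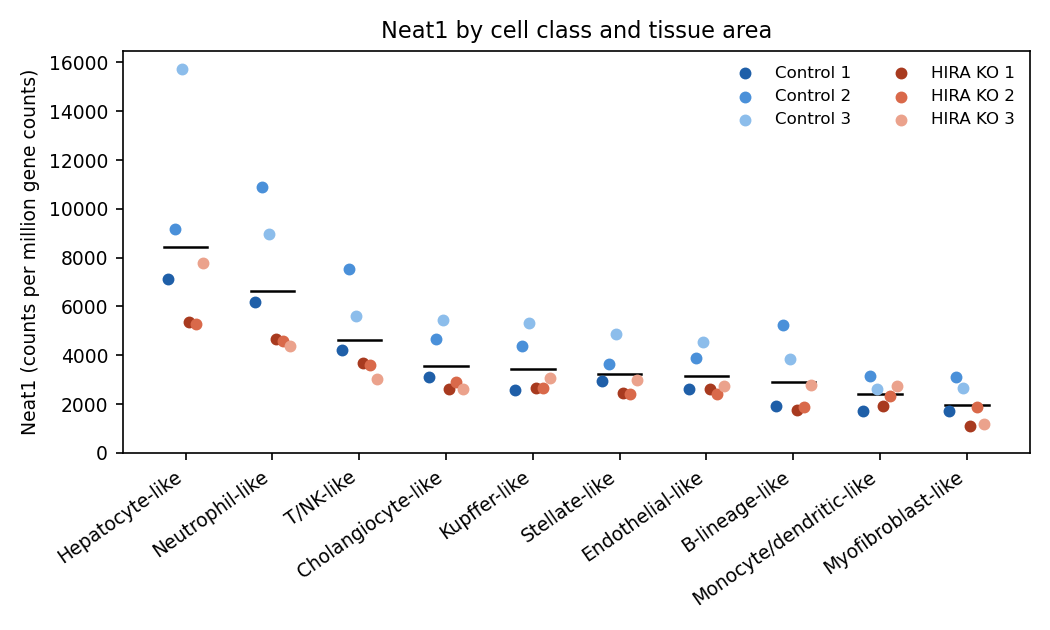
Points are the Neat1 level of each tissue area in each named class, in CPM, and black lines are the means over the 6 areas. Hepatocyte-like cells (mean 8419) and neutrophil-like cells (6619) stand above the other classes, and Control areas 2 and 3 are at the top in most classes. Neutrophil-like cells also had the greatest sum of hepatocyte markers of the named classes other than hepatocyte-like.

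The genotype comparison asked whether Neat1 differs when hepatocytes lack HIRA. In all cells kept, Neat1 stood at 5152, 9638 and 9422 CPM in the Control areas and at 3951, 4276 and 5605 CPM in the HIRA KO areas. The groups overlapped, since HIRA KO area 3 was above Control area 1. Control areas averaged 8071 ± 2530 and HIRA KO areas 4611 ± 876 (SD, 3 areas each), and the mean log2 difference was -0.77 ± 0.33 (SE), a 1.70-fold lower level. HIRA KO was lower within each of the 3 slide rows, by log2 values of -0.38, -1.17 and -0.75. Fewer cells rich in Neat1 and less Neat1 per cell cannot be told apart in this sum over all cells.

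In hepatocyte-like cells the level was 7133, 9180 and 15745 CPM in Control areas and 5382, 5299 and 7776 CPM in HIRA KO areas. Hepatocyte-like cells were 9.40% to 23.3% of cells in Control and 21.3% to 42.3% in HIRA KO areas, while cells of the unnamed clusters were 20.7% to 39.3% and 5.49% to 21.7%, and these shares overlapped between the groups only narrowly. HIRA KO area 3 again lay above Control area 1, and Control area 3 was far above all other areas. The mean log2 difference was -0.74 ± 0.38 (SE), again lower in each of the 3 rows, and without Control area 3 it was -0.42. The 13 hepatocyte markers on the panel took a larger part of the counts in HIRA KO hepatocyte-like cells, at 142103 to 168970 CPM against 119903 to 123473 in Control, without overlap, and their part in the Neat1 difference was not tested. Markers of endothelial and B-lineage cells were lower there in HIRA KO without overlap, at 7540 to 7760 against 8019 to 8201 CPM (10 of 11 markers on the panel) and at 5243 to 5970 against 6038 to 6473 CPM (9 of 10). The groups overlapped there for the cholangiocyte, stellate, myofibroblast, Kupffer, monocyte/dendritic, T/NK and neutrophil markers.

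The size of the difference depended on the scale. Hepatocyte-like cells held 0.903, 1.499 and 1.85 Neat1 counts per cell in Control areas and 0.753, 1.02 and 1.71 in HIRA KO areas, a log2 difference of -0.31 ± 0.46 (SE). Nuclear Neat1 per megapixel of nucleus was 219, 418 and 408 in Control and 184, 227 and 338 in HIRA KO, a log2 difference of -0.47 ± 0.40 (SE). Per cell area the difference shrank to -0.18 ± 0.37 (SE). On all of these scales the mean was lower in HIRA KO and the areas of the groups overlapped.

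At matched nuclear size the mean difference was seen in all but the smallest nuclei, and the groups overlapped in every size class. In hepatocyte-like nuclei of 3000 to 5000 square pixels, Neat1 density was 233, 479 and 376 per megapixel in Control areas and 200, 218 and 278 in HIRA KO areas, a log2 difference of -0.60. That was the largest difference of any size class. In the smallest nuclei the density was 45.8, 79.8 and 67.9 against 46.7, 54.0 and 91.4, a log2 difference of -0.04. In the largest nuclei the log2 difference was -0.43, with 2 of the 3 slide rows lower in HIRA KO. Median nuclear area of hepatocyte-like cells, in square pixels, averaged 3638 ± 563 over Control areas and 3722 ± 369 over HIRA KO areas (SD), and the groups overlapped.

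**Figure D4:**
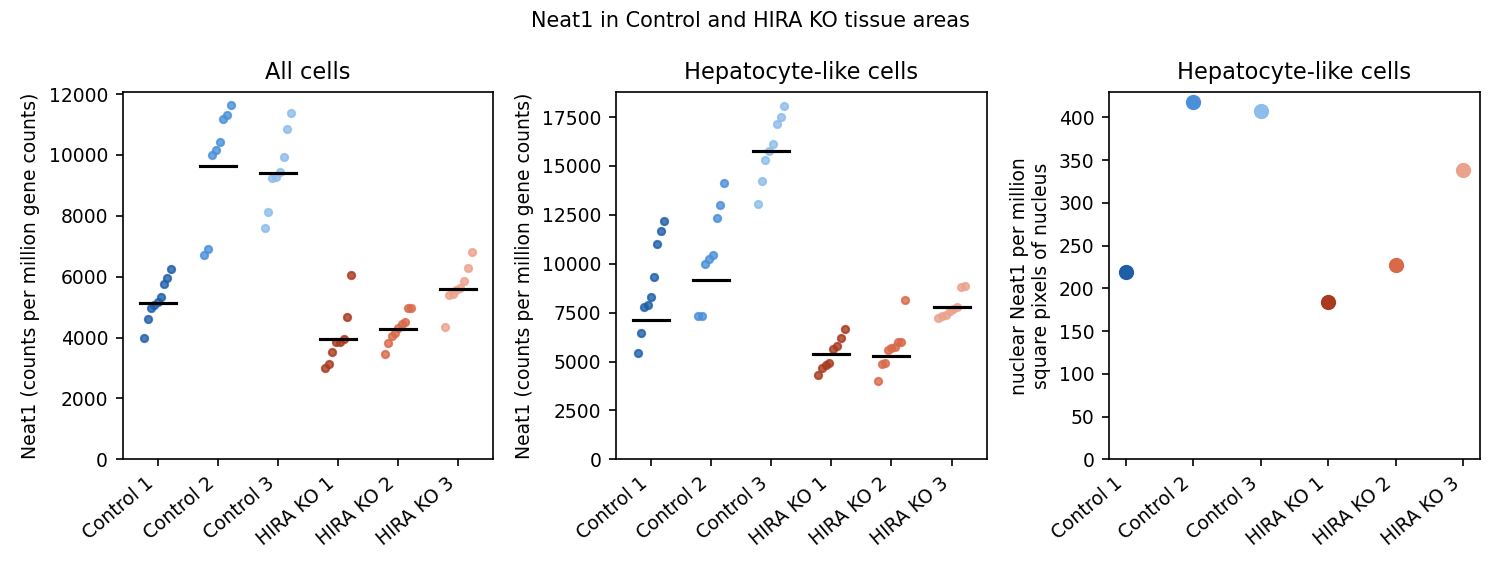
Small points are fields of view and black lines the level of each whole tissue area, in CPM, for all cells (left) and hepatocyte-like cells (middle), and the right panel shows nuclear Neat1 per megapixel of nucleus, 1 point per area. In each panel HIRA KO area 3 (5605, 7776 and 338) lies above Control area 1 (5152, 7133 and 219).

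The mean also differed in classes other than hepatocytes. In CPM it was lower in HIRA KO in 10 of 10 named classes, by log2 values between -0.89 in neutrophil-like and -0.07 in monocyte/dendritic-like cells, and 7 of 10 classes were lower in each of the 3 slide rows. Counted per cell it was lower in 8 of 10 classes and per cell area in 5 of 10, with monocyte/dendritic-like cells at 0.35 and 0.66 on the log2 scale. The classes share the same 6 areas and all hold hepatocyte transcripts, so these counts of classes are not independent observations. In 3 classes all HIRA KO areas were below all Control areas. These were neutrophil-like cells, at 8686 ± 2369 in Control and 4552 ± 156 CPM in HIRA KO, where 5.35% of 748 targets showed this order, T/NK-like cells, at 5795 ± 1659 and 3431 ± 365 CPM (7.89% of targets), and cholangiocyte-like cells, at 4406 ± 1196 and 2707 ± 170 CPM (6.42% of targets; SD, n = 3 each). The summed hepatocyte markers were 67331 to 76325 CPM in Control and 82630 to 95050 in HIRA KO neutrophil-like cells. They overlapped in T/NK-like cells, at 43935 to 54623 and 46855 to 63819 CPM, and in cholangiocyte-like cells, at 49899 to 58732 and 56675 to 81059 CPM, and their part in the Neat1 differences was not tested.

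Across the whole panel, edgeR's quasi-likelihood test called 2 of 998 targets tested in all cells at an adjusted p of 0.05, which is 0.2%, and both were higher in HIRA KO. They were Igha, of the IgA heavy chain, and Col1a1, of collagen I. In hepatocyte-like cells it called 0 of 998, which is 0%, whereas 85 targets had an unadjusted p under 0.05 and DESeq2 called 8. With slide row as a block, edgeR called 17 targets in all cells, or 1.7%, and 15 in hepatocyte-like cells, or 1.5%. In these fits the Neat1 log2 fold change was -0.68 ± 0.32 in all cells and -0.71 ± 0.28 in hepatocyte-like cells (SE). Of the 748 targets above the highest negative probe, 0 had a lower log2 fold change than Neat1 in all cells and 1 in hepatocyte-like cells. Neat1 was chosen with its genotype pattern known, so this rank is a description only. Neat1 also spread widely among Control areas. Without TMM scaling the median over all targets was -0.12 in all cells, and the Neat1 difference of -0.77 in CPM is to be read against that shift.

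The genes known to act with or beside Neat1 were then examined from fixed lists. None of 20 paraspeckle protein genes was on the panel (0 of 20). Of the hypoxia response, in which Neat1 is a known target, 8 of 22 genes were measured and 0 passed the test in either direction in both fits. Their median log2 difference in hepatocyte-like cells was 0.04, against a median of 0.00 over all targets. Ndrg1, a stress-responsive gene, was at 1136, 1092 and 1065 CPM in Control and 988, 782 and 768 CPM in HIRA KO hepatocyte-like cells, with a log2 fold change of -0.30 ± 0.11 (SE, edgeR, adjusted p = 0.505). Vegfa, at -0.39 ± 0.22 (edgeR, adjusted p = 0.686), leads a hepatocyte-like cluster and overlapped between groups. Ldha, of lactate dehydrogenase, had the opposite sign at 0.29 ± 0.18 (SE, edgeR, adjusted p = 0.694) and also overlapped.

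Neat1 is also a known target of p53, and 8 of 16 p53 response genes were measured with 0 called in both fits. The lowest p in hepatocyte-like cells belonged to Gdf15, a stress-induced cytokine, at -0.19 ± 0.12 (edgeR, adjusted p = 0.700). Of the immediate early and stress genes 20 of 24 were measured and 0 were called. Hspb1, a small heat shock protein gene, was at 1414, 918 and 1321 CPM in Control and 710, 793 and 811 CPM in HIRA KO hepatocyte-like cells, a log2 fold change of -0.52 ± 0.15 (SE, edgeR, adjusted p = 0.284). Hsp90ab1, a chaperone gene, went the other way at 0.51 ± 0.14 (SE, edgeR, adjusted p = 0.284). Secreted plasma protein genes, 13 of 15 of them measured, gave 0 calls and a median log2 difference of 0.34 in all cells, with 12 of 13 above 0, against a median of -0.01 over all targets. In hepatocyte-like cells the median was 0.27. They include genes that define the hepatocyte-like clusters. Meg3 was 0.07 ± 0.11 in all cells (SE, edgeR, adjusted p = 0.904).

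The nuclear share of Neat1 in hepatocyte-like cells was 93.5%, 91.3% and 95.6% in Control areas and 90.7%, 87.8% and 86.4% in HIRA KO areas, without overlap. The mean difference was -5.15 percentage points. This order of the areas was shared by 14.5% of the 702 targets with at least 50 transcripts in each area (12% of 748 in all cells), and 532 of the 702 had a lower mean in HIRA KO, with a median difference of -2.68 percentage points. In all, 159 of 702 targets had a more negative difference than Neat1. Over all gene transcripts of these cells together, where abundant targets weigh most, the nuclear share differed by -4.42 percentage points. The difference of Neat1 was thus larger than that of the median target and closer to that of the pool. The part of the mix of targets in the pooled value was not tested.

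The distance of a hepatocyte from landmarks of the lobule was not used to choose Neat1 and could be tested. Hepatocyte-like cells among the 25% nearest to Glul-high cells, which mark the pericentral end, were compared within each area with the 25% farthest away. Median distances of near cells were 459 to 723 pixels by area. Those of far cells were 2358 to 5753 pixels, but 15785.5 in Control area 1, which had 23 Glul-high cells. Far cells there need not share a lobule with a Glul-high cell, and without that area the mean log2 ratio was -0.26. Near cells had 5500, 6708 and 14904 CPM in Control areas and 4434, 6009 and 8171 CPM in HIRA KO areas, and far cells 10929, 12209 and 16998 and 6007, 5633 and 7757 CPM. Neat1 was lower near Glul-high cells in 4 of 6 areas, by a mean log2 ratio of -0.39 ± 0.46 (SD, n = 6, exact sign-flip permutation test, two-sided, p = 0.125, adjusted p = 0.167 over 4 tests). The 2 areas with the opposite sign were HIRA KO areas 2 and 3. Median counts per cell were higher near Glul-high cells in 5 of 6 areas, with 155 against 70 in Control area 1 and 172 against 107 in Control area 2, where Neat1 CPM differed most. Counted per cell the mean log2 ratio was 0.03 (exact sign-flip permutation test, two-sided, p = 0.688).

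The comparison on the portal side did not pass the test either. Neat1 was higher near cholangiocyte-like cells in 4 of 6 areas, by a mean log2 ratio of 0.23 ± 0.31 (SD, n = 6, exact sign-flip permutation test, two-sided, p = 0.125, adjusted p = 0.167), and per cell the ratio was -0.09 (exact sign-flip permutation test, two-sided, p = 0.594). Control area 3 was lower near both landmarks and HIRA KO area 2 higher near both. Per nuclear area the ratios were -0.11 for Glul-high and 0.05 for cholangiocyte-like cells. A difference in Neat1 with distance from these landmarks was thus not detectable with 6 areas.

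The spacing of Neat1 spots within a nucleus was the other property that the choice of Neat1 had not used. Nuclei of hepatocyte-like cells with exactly 2 nuclear spots of a target were taken, and the distance between the spots was divided by the square root of the nuclear area. As deposited, the median for Neat1 was 0.268, 0.102 and 0.176 in Control areas and 0.231, 0.184 and 0.308 in HIRA KO areas, over 1324 nuclei. For all other targets together it was 0.350, 0.00634 and 0.00518 and 0.223, 0.0202 and 0.0104. The mean log2 ratio of 2.81 ± 2.40 (SD, n = 6) did not pass the exact sign-flip permutation test (two-sided, p = 0.0938, adjusted p = 0.167).

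Medians of the other targets near 0 came from pairs of spots at almost the same place. Of 92528 pairs of other targets, 47299 or 51.1% lay under 1 pixel apart in adjacent optical planes, with 21.2% in Control area 1 and 63.9% in Control area 3, whereas 15.9% of Neat1 pairs did. Over all spots, 6.30% of gene transcripts repeated a spot of the same target within 1 pixel in the plane below, from 2.15% in Control area 1 to 9.27% in Control area 2, and 8.41% of Neat1 transcripts did. Only 1085 pairs of spots were that close more than 1 plane apart, against 475995 in adjacent planes. Whether such pairs are 1 molecule listed in both planes was not tested.

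With these repeats merged, a step chosen after the data were seen, Neat1 spots lay closer together than those of other targets in 6 of 6 areas. Median relative spacing of Neat1 was 0.271, 0.254 and 0.246 in Control areas and 0.283, 0.305 and 0.329 in HIRA KO areas, and that of other targets 0.447, 0.440 and 0.456 and 0.464, 0.462 and 0.470. The mean log2 ratio was -0.71 ± 0.13 (SD, n = 6, exact sign-flip permutation test, two-sided, p = 0.0312, the smallest that 6 areas allow), so Neat1 spacing was 0.613 times that of other targets. Without merging, the ratio was -0.61 when pairs under 5 pixels were left out and -0.60 in nuclei with 3 spots, where repeats remain (each with exact sign-flip permutation p = 0.0312). In pixels, the medians over all areas were 19.5 for Neat1 and 34.5 for other targets, and 26.8% of Neat1 pairs but 10.8% of other pairs lay 1 to 10 pixels apart.

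Neat1 had the closest spots of the 77 targets with at least 100 such nuclei, at a median of 0.292. Srsf2, a splicing factor gene, was next at 0.385 and then H2-Q10, a class Ib major histocompatibility gene, at 0.392. Vegfa, the next most nuclear target, stood at 0.428 over 813 nuclei, and its area medians of 0.401 to 0.510 were all above those of Neat1. The difference was present in each of the 4 size classes above 1500 square pixels, at log2 ratios of -0.84 in nuclei of 1500 to 3000 square pixels, -0.69 to 5000, -0.58 to 7000 and -0.56 above that. The order of single targets is a description, since pairs of 1 target in 1 nucleus share their cell.

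**Figure D5:**
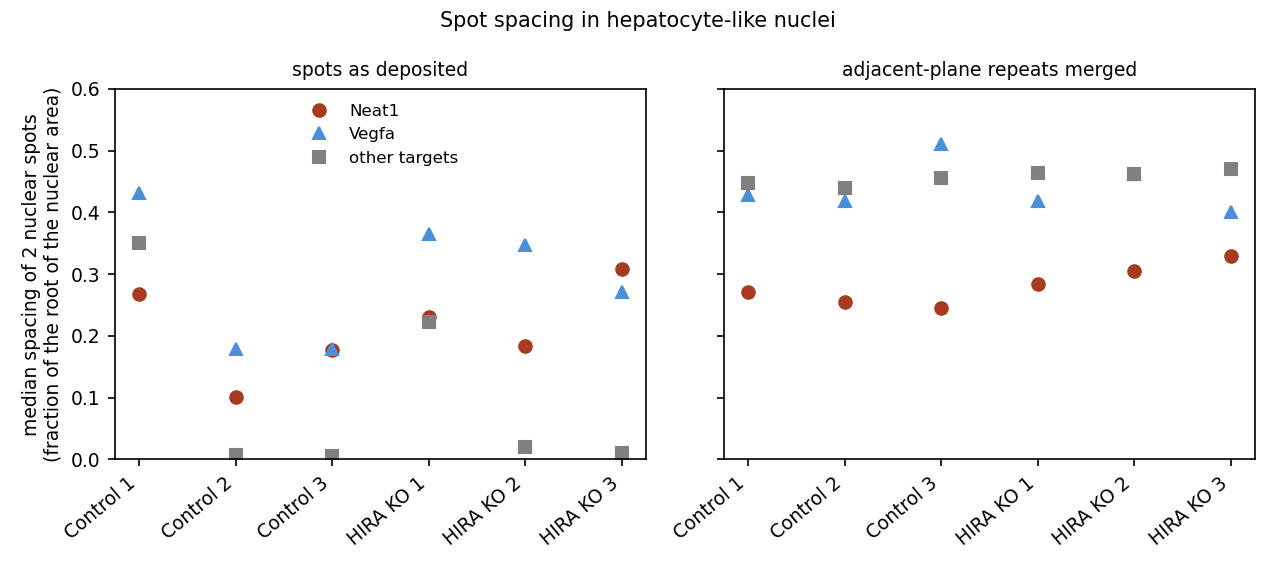
Points are the median distance between the 2 nuclear spots of a target in hepatocyte-like nuclei, as a fraction of the square root of the nuclear area, for each tissue area, as deposited (left) and with repeats in adjacent planes merged (right). After merging, Neat1 lies between 0.246 and 0.329 and the other targets together between 0.440 and 0.470.

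As deposited, Neat1 spacing differed between HIRA KO and Control by 0.48 ± 0.46 on the log2 scale (SE, exact permutation test, two-sided, p = 0.4, adjusted p = 0.4), where 0.1 is the smallest p that 3 against 3 areas allow. With repeats merged, it was wider in every HIRA KO area than in any Control area, at 0.306 ± 0.0229 against 0.257 ± 0.0128 (SD over 3 areas, p = 0.1 by the two-sided exact permutation test). Other targets showed the same order, with a log2 difference of 0.06 against 0.25 for Neat1.

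Finally, the targets whose pattern most resembled that of Neat1 were listed. Across the 10 named classes (mean log2 CPM over areas, pseudocount 10), Pearson's r was highest for H2-Q10 at 0.97, Gc at 0.96, Ttr and Azgp1 at 0.95 and Fgg at 0.93, against a median of 0.38 over 747 targets. All are most abundant in hepatocytes, and the 10 classes share the 6 areas.

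Across the 50 fields of view, within hepatocyte-like cells and after subtraction of area means, the order was a different one. The targets most like Neat1 were Vegfa (r = 0.54), Ccr1 (0.46), Myl12a (0.46), Clec2d (0.42) and Cxcl2 (0.40), and the most opposed were Lgals9 (-0.58), Sod1 (-0.58), Eif5a (-0.50), Pfn1 (-0.50) and Gstp1/2 (-0.49). Vegfa and Clec2d were also among the most nuclear targets. Nuclear shares of the 5 opposed targets ran from 29.2% for Sod1 to 46.9% for Gstp1/2, against 50.5% for the median target. The part of the compartment in these correlations was not tested. Fields share their area, their depth and their mix of hepatocyte clusters. Neat1 CPM itself was negatively correlated with the median counts per cell of the field (r = -0.46) and with its share of hepatocyte-like cells (r = -0.45), and the part of either in these correlations was not tested.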

How the data were processed

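Transcripts of 1000 gene targets and 10 negative probes were measured by CosMx on 5 µm liver sections in 50 fields of view, 25 per group. The authors deposited counts per cell and target, a list of decoded transcripts with compartments, and per-cell areas with mean fluorescence intensity; the intensity columns deposited were not used. The image software's version and the pixel size are not given in the sources used here.

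Cells with under 20 counts or an area over 5 times the geometric mean were left out, following the study's methods, which left 49665 of 52132 cells. Clusters were made without Neat1 (Pearson residuals, 30 components, leidenalg 0.10.2 at resolution 1.6, scikit-learn 1.9.0, Python 3.11.15) and named from fixed markers; doublets were not called. Counts were summed per tissue area, the replicate, and tested with edgeR 4.0.16 (quasi-likelihood, TMM, Benjamini-Hochberg) in R 4.3.3, with DESeq2 1.42.0 as an alternative. The fit was also run on simulated counts with known changes and a fixed dispersion, which need not match the spread between these areas. Labels name no mouse for a field, so p-values measure the spread between tissue areas. Exact permutation tests of 3 against 3 areas used scipy 1.17.1, and exact sign-flip tests enumerated all changes of sign directly. Neat1 and the gene lists were chosen with earlier results of these data known. Named genes were, besides Neat1, at most 3 members of each list with the lowest p, the 10 most nuclear targets and the 5 most like or opposed to Neat1. Merging of repeated spots, and hepatocyte-like with unnamed cells together, were alternatives chosen after seeing the data. Counts of 1 spot are not amplified reads, and the precision of shares is limited by the 6 areas.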

Additional observations from a re-analysis of the deposited data

Results flagged for a closer look

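Over the 9 fields of view of HIRA KO area 2, Neat1 in hepatocyte-like cells ranged from 3999 to 8126 CPM with a median of 5713, and the field at 8126 lay apart from the others by a gap that was large for the range of its group. It held 199 hepatocyte-like cells with 211 Neat1 counts. Of 12 groups of fields examined this was the only one with such a gap, and chance marks about 1 in 20 groups.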

How the results depend on the processing

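Mean Neat1 was lower in HIRA KO under every scaling tried, but per cell area the log2 difference shrank to -0.15 in all cells and -0.18 in hepatocyte-like cells. In all cells per cell area, the slide rows gave 0.29, -0.84 and 0.12, so only 1 of 3 was lower in HIRA KO. Counted per cell, 2 of 3 rows were lower. Median cell area was 8691 to 11465 square pixels in HIRA KO and 11979 to 16558 in Control areas. In hepatocyte-like cells the log2 difference in CPM was -1.14 with Neat1 kept in the clustering. It was -0.81 at clustering resolution 1.0 and also -0.81 with the unnamed cells added. With no filter on cells it was -0.49, against -0.75 in all cells. Cells were clustered anew for that setting, and the cluster led by Vegfa and Clec2d stayed unnamed. Leaving out 1 area gave -1.06 to -0.61 in all cells, -0.99 to -0.42 in hepatocyte-like cells (lowest size without Control area 3) and -6.33 to -4.08 percentage points for the nuclear share. Counted per cell, the ratio near Glul-high cells was 0.0319 and near cholangiocyte-like cells -0.0922, both reversed; leaving out 1 area gave -0.48 to -0.26 and 0.13 to 0.30. Spot spacing against other targets reversed from 2.81 to -0.60 in nuclei with 3 spots, -0.61 without pairs under 5 pixels, -0.71 with repeats merged and -0.70 with 3 spots and repeats merged; without 1 area it was 2.35 to 3.44. Its difference between genotypes was 0.12 (without Control area 2) to 0.82. Targets called in all cells numbered 1 by library size only, 10 by DESeq2 and 17 with slide row as a block, and 1 to 3 without 1 area. In hepatocyte-like cells they numbered 8 by DESeq2, 15 with slide row as a block, 8 with Neat1 kept in the clustering and 0 to 2 without 1 area. The cause was not tested for the other changes. The labels give no replicate numbers that groups share, so areas were matched by slide row alone. The exact permutation test of 3 against 3 areas cannot go below p = 0.1.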

Other observations

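The 11162 cells of the 4 unnamed clusters also held much Neat1, at 11160 ± 3103 CPM in Control and 6232 ± 653 CPM in HIRA KO areas (SD, n = 3 each). The largest of these clusters, led by Cxcr1 and Vegfa, had 10018 ± 3659 CPM over the 6 areas and a median nuclear area of 4712 square pixels, and 92.4% of its Neat1 transcripts were nuclear. Pooled over all areas, the unnamed cells were at 9171 CPM, above the hepatocyte-like cells at 7522. Median cell area was 19124 square pixels in unnamed and 19741 in hepatocyte-like cells.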
